A study of Mus musculus with 8 samples.

Results

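DNA methylation was read at 10 genes that mark or govern spermatogonial stem cells and their first differentiation steps: Gfra1, Ret, Zbtb16, Id4, Nanos2, Nanos3, Kit, Sohlh1, Sohlh2 and Dmrt1. They were taken by name out of 24950 mouse genes, and every cytosine lying between 2 kb upstream of a gene's first start site and its end was counted as belonging to that gene. By this rule 1448 of 2130064 cytosines belonged to the 10 genes, 121 of them in promoters (1 kb before to 100 b after a RefSeq start site), 1314 in gene bodies and 13 in the stretch upstream of the promoters. Cytosines were read in 9 of the 10 genes. Nanos3 had none, only 5 promoters held at least 3 cytosines, and all 9 gene bodies with data did.

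The cells came from F1 C3H/HeN male mice whose dams drank either tap water (control) or water with 85 ppm sodium arsenite (arsenic) from gestational day 8 to 18. Testes were taken on postnatal day 6, and the fraction bound by an antibody against CD49f, the integrin Itga6, was isolated on magnetic beads as type A spermatogonia. Cells of 8 testes, taken from 4 mice, were pooled for each sample, giving 4 control and 4 arsenic pools, so a level is an average over all cells of a pool, and a change in the share of a cell type and a change within a cell type cannot be told apart. Reduced representation bisulfite sequencing (RRBS) was used, in which MspI cuts DNA at CCGG and the short fragments between cuts are bisulfite converted and sequenced, so only CpGs near such sites are read.

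Glial cell line-derived neurotrophic factor (GDNF) from Sertoli cells binds the co-receptor Gfra1, which signals through the tyrosine kinase Ret and keeps spermatogonial stem cells dividing without differentiating. Zbtb16 (PLZF), Id4 and the RNA-binding protein Nanos2 act in these cells to hold back differentiation. Retinoic acid then starts the passage to differentiating spermatogonia, which carry the receptor Kit and depend on the transcription factors Sohlh1 and Sohlh2, while Dmrt1 restrains entry into meiosis. CpG-rich promoters are mostly free of methylation whether or not the gene is active, and many genes used only in the germ line carry methylated promoters in somatic cells.

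The libraries held 96428439 to 133406260 reads on cytosines and a median of 31 to 44 reads per cytosine. Each cytosine of the 10 genes had 10 to 367 reads in each pool. The defining promoters of male germ cells were checked first. Of 12 germ-line promoters that are known to be unmethylated in male germ cells, including Ddx4, Dazl and Sycp1, 11 were covered and their mean level was 84.6% (pools 81.9 to 87.6%), with 10 of them above 80%. Of 10 maternally methylated imprinted promoters, which male germ cells carry unmethylated, 8 were covered, at a mean of 63.0% (pools 58.8 to 65.8%). The paternally methylated stretch 2 to 4 kb upstream of H19 was at 66.3% over 4 cytosines. Sertoli cell genes had 3 of 6 promoters covered, at 1.29%, and Leydig and peritubular cell genes 2 of 6, at 2.13%. The median of all promoters was 1.80%, so these low promoter levels do not mark a cell type. Gene bodies averaged 25.3% in the Sertoli list (6 of 6 covered) and 59.2% in the Leydig and peritubular list (5 of 6 covered). These germ-line and imprinted levels went against the label of a germ cell fraction in all 8 pools, and control and arsenic pools overlapped in them. Their part in the levels of the 10 genes was not tested.

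The 10 genes differ in how much of them RRBS could reach. Counted from the first start site in the GRCm38 reference, the promoters held between 7 CpGs (Nanos2 and Nanos3) and 66 CpGs (Zbtb16), beside a median of 26 over all 24950 promoters, and each held at least 1 CCGG, as 76.5% of all promoters did. Id4 had 64 CpGs, Kit 53 and Gfra1 48. Sohlh1 had 30 CpGs and 4 CCGG, and Dmrt1 36 CpGs and 1 CCGG, but no cytosine of either promoter was read in all pools. The promoters of Kit and Nanos3 are shown from 250 b before to 50 b after the start site as a promoter with many read CpGs and one with none. Beside them stand a stretch of the first Sohlh2 intron that is referred to below and part of the Zbtb16 intron window with the lowest p. In all 4 sequences the strand is given. In them, capitals mark the CpGs that were read in all 8 pools on at least 1 strand. The Kit stretch held 20 CpGs, of which 12 were read, and the Nanos3 stretch held 3, of which none was read. The promoters are from RefSeq (GRCm38.p6), which gave one for 7 of the 10 genes, and the other stretches were read from the same build.
Kit, chr5:75574737-75575036 (plus strand): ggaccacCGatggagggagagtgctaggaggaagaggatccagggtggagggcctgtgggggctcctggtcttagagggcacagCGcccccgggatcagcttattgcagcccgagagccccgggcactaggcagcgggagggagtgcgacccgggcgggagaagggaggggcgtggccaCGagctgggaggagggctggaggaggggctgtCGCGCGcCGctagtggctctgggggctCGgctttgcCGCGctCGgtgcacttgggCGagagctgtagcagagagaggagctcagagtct
Nanos3, chr8:84176503-84176802 (minus strand): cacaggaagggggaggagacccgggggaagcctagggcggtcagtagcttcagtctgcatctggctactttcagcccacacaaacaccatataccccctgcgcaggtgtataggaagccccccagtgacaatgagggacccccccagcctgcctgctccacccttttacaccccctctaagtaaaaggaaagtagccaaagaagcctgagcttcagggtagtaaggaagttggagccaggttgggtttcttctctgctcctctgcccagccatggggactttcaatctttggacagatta
Sohlh2 intron, chr3:55182199-55182330 (plus strand): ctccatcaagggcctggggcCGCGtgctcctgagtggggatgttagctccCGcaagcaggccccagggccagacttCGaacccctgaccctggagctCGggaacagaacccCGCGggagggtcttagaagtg
Zbtb16 intron, chr9:48823148-48823447 (plus strand): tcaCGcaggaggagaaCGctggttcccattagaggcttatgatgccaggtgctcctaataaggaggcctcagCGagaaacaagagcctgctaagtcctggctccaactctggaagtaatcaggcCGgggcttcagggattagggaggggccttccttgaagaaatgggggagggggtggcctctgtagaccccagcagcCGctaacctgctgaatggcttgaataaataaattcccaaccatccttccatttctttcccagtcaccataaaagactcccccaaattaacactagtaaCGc

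All 5 promoters with at least 3 cytosines had low levels, as most promoters did. They stood at the 32.6th (Ret) to 70.8th (Id4) percentile of 12318 promoters, whose median level was 1.80%. The gene bodies spanned almost the whole scale. Averaged over the 8 pools, gene bodies ran from Sohlh2 (91.5%) through Kit (66.1%), Nanos2 (63.9%), Gfra1 (54.0%), Ret (50.9%), Dmrt1 (44.1%), Zbtb16 (44.0%) and Sohlh1 (16.2%) down to Id4 (1.02%), beside a median of 56.9% over 18952 gene bodies. Dmrt1 and Zbtb16 overlapped over their pools, and the wide range of Nanos2 (49.3 to 72.7%) covered Kit, Gfra1 and Ret, whereas Gfra1 (53.3 to 54.5%) lay above Ret (49.6 to 52.7%) in every pool. Sohlh2 stood at the 97.2nd percentile of all gene bodies and Id4 at the 2.46th.

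**Figure D1:**
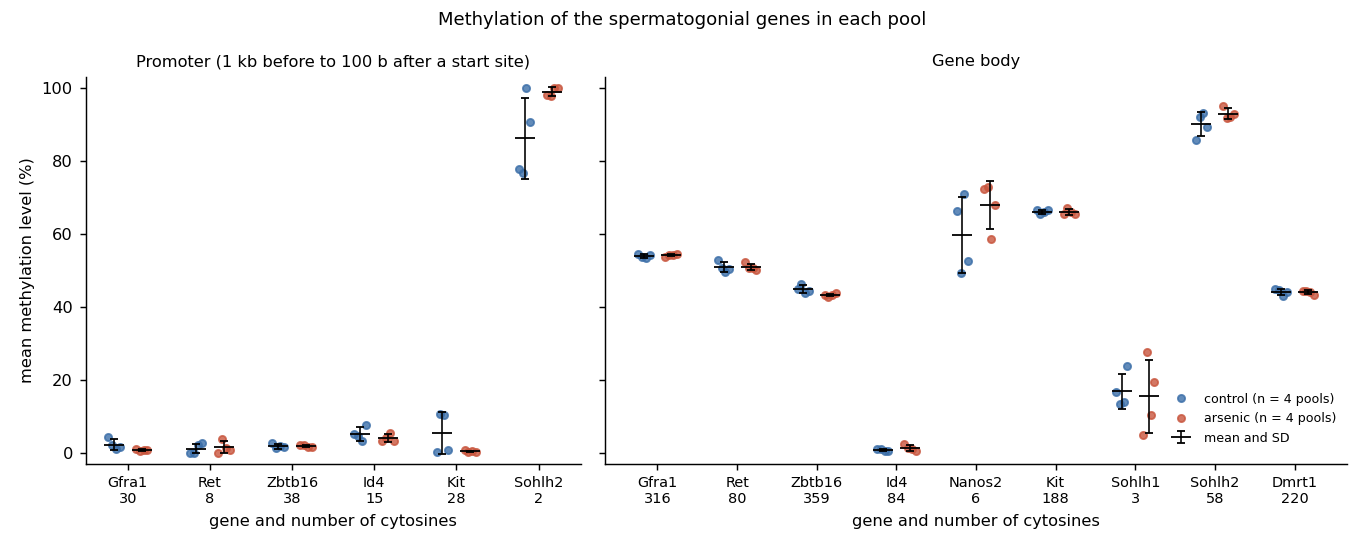
Mean methylation level (%) over the cytosines of each promoter (left) and gene body (right) in each pool, with the number of cytosines under each gene, control in blue and arsenic in red, and the mean and SD of 4 pools in black. The 5 promoters with 8 or more cytosines lie near the floor in both groups, apart from 2 Kit control pools at 10.6 and 10.4%, while gene bodies range from 1.02% (Id4) to 91.5% (Sohlh2).

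To determine whether gestational arsenic exposure changed methylation of these genes, the promoters and gene bodies of all genes were compared with limma on summed read counts, with Benjamini-Hochberg adjustment. None of the 5 promoters and none of the 9 gene bodies was called at an adjusted p of 0.05, and the limma adjusted p ranged from 0.896 to 0.993. Over all genes, limma called 0% of 12318 promoters and 0.00528% of gene bodies, although 667 promoters and 1077 gene bodies had an unadjusted p under 0.05. Among the 10 genes, 1 promoter (Gfra1) and 0 gene bodies had an unadjusted p under 0.05. The pools of both groups did not overlap in 0 of 5 promoters and in 1 of 9 gene bodies (Zbtb16, lower in arsenic). Over all genes this was so for 2.97% of promoters and 3.93% of gene bodies, with 3.02% of gene bodies lower in arsenic. In the 10 genes, 4 promoters were lower and 1 higher in the arsenic mean, and 4 gene bodies were lower and 5 higher, beside 52.5% of all promoters and 61.5% of all gene bodies lower. With 4 pools a side, 0.0286 is the smallest two-sided p that an exact permutation test can give.

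Of the receptor for GDNF, the co-receptor gene Gfra1 (chromosome 19, 58235581 to 58455398, minus strand) had 30 promoter cytosines. Their mean levels were 4.22, 2.20, 1.06 and 1.45% in the control pools and 1.08, 0.393, 0.785 and 0.862% in the arsenic pools. Only arsenic 1 reached the lowest control pool, and the groups overlapped by that pool. The mean was 2.23% ± 1.41 (SD, n = 4) against 0.781% ± 0.288 (SD, n = 4), a difference of -1.45 percentage points with an exact permutation p of 0.0571. On the log2 scale of methylated to unmethylated reads, limma gave -1.42 ± 0.49 (SE), with an unadjusted p of 0.0193 and an adjusted p of 0.896. Without control 3 the groups did not overlap and the difference was -1.84 points (exact permutation p = 0.0286), and without control 1 it was -0.788 points (exact permutation p = 0.0571). Lower mean levels were seen at 21 of the 30 cytosines and higher ones at 5, but neighbouring cytosines are not replicates. Controls 1 and 2 each had 1 or 2 methylated reads at every cytosine read from -398 b to -514 b. The unmethylated stretch extended well beyond the promoter, with 119 cytosines in a row under 10% from -1391 b to 2259 b of the start site, and the next cytosine, at 3272 b, was at 80.7%.

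The Gfra1 gene body (316 cytosines) was at 53.9% ± 0.547 in control and 54.2% ± 0.300 in arsenic pools (SD, n = 4), and the groups overlapped (exact permutation p = 0.343). Its levels were mixed along the gene. Of these cytosines 91 were at 10% or less, 172 between 10 and 90%, and 53 at 90% or more. Coding exons (37 cytosines) averaged 25.6% in control and 25.4% in arsenic pools, and introns (255 cytosines) 57.0 and 57.5%.

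Ret, the signalling subunit of the same receptor (chromosome 6, 118151748 to 118197744, minus strand), had only 8 promoter cytosines. They averaged 1.12% ± 1.32 in control and 1.48% ± 1.69 in arsenic pools (SD, n = 4), with single pools between 0 and 3.88% (exact permutation p = 0.743). Across the start site 27 cytosines in a row stayed under 10%, from -182 b to 2492 b, and the next one, at 2544 b, was at 41.5%. The Ret gene body (80 cytosines) was at 50.9% ± 1.32 and 51% ± 0.920 (SD, n = 4), 0.0815 points apart (exact permutation p = 0.971). The 13 coding exon cytosines of Ret were at 75.2% in control and 75.6% in arsenic pools.

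Among the factors that hold stem cells undifferentiated, Zbtb16 (chromosome 9, 48651797 to 48836225, minus strand), a zinc finger repressor, was the one whose gene body levels did not overlap between the groups. Its 38 promoter cytosines, around 2 start sites, averaged 1.78% ± 0.666 in control and 1.77% ± 0.304 in arsenic pools (SD, n = 4, exact permutation p = 1). A run of 128 cytosines under 10% reached from -1077 b to 1603 b of the first start site, and the next cytosine read, at 5633 b, was at 82.0%. The 359 cytosines of the gene body were at 44.9, 46.3, 43.7 and 44.3% in the control pools and at 43.3, 42.8, 43.2 and 43.7% in the arsenic pools. All arsenic pools lay below all control pools, though arsenic 4 and control 3 were the same after rounding. The mean fell from 44.8% ± 1.13 to 43.3% ± 0.361 (SD, n = 4), a difference of -1.55 points with an exact permutation p of 0.0286 and a limma adjusted p of 0.906. With reads weighted by coverage the difference was -2.76 points, with both strands of a CpG summed -1.53 points and with the promoter of the first start site only -1.48 points, and in each of these the pools overlapped. Leaving out any 1 arsenic pool gave an exact permutation p of 0.0571, with groups that still did not overlap.

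The lower Zbtb16 mean in arsenic came mostly from cytosines of intermediate level. The 207 cytosines between 10 and 90% averaged 57.0% in control and 54.0% in arsenic pools, a difference of -2.99 points that made up -1.73 of the points of the whole gene body. The 107 cytosines at 10% or less differed by 0.526 points (0.963 against 1.49%), with arsenic 1 at 3.34%, the other arsenic pools at 0.670 to 1.12% and the control pools at 0.833 to 1.08%, and the 45 at 90% or more by 0.145 points. In bins of 1 kb from the start site, 33 of 45 bins with at least 3 cytosines were lower in arsenic and 12 higher, and their differences ran from -13.2 to 6.54 points. The direction was spread along the gene. Of 38 windows of 1 kb in Zbtb16, 30 (78.9%) were lower in arsenic by pooled reads, beside 56.3% of all 128 windows of the 10 genes and 56.4% of all windows. These bins and windows re-count largely the same cytosines in the same pools as the gene body mean. They are not replicates, and their counts give that mean no further support. Without the 15 cytosines of the window with the lowest p, the gene body difference was -1.34 points, and without the 3 DMCs described below it was -1.46 points, with the groups overlapping in both cases (exact permutation p = 0.0571). Both subsets were chosen after the values were seen.

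**Figure D2:**
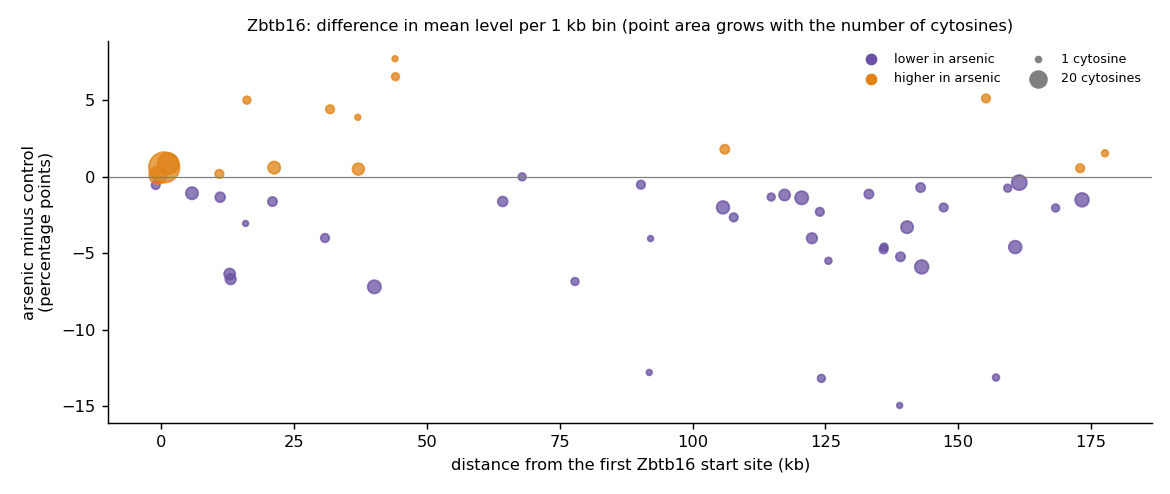
Difference in mean methylation level (arsenic minus control, percentage points) in 54 bins of 1 kb along Zbtb16, against the distance from the first start site in kb, with point area growing with the number of cytosines, purple for lower and orange for higher in arsenic. The bins at the start site lie near 0, and most bins further into the gene lie below it, those beyond -10 points holding 1 to 3 cytosines each.

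Id4, an inhibitor of DNA binding that marks the stem cell state (chromosome 13, 48261116 to 48266028, plus strand), was unmethylated throughout the transcribed part that was read. Its 15 promoter cytosines were at 5.17, 4.48, 3.25 and 7.67% in control and 3.19, 4.07, 5.41 and 3.24% in arsenic pools. The groups overlapped, with means of 5.14% ± 1.87 and 3.98% ± 1.04 (SD, n = 4, exact permutation p = 0.314). The 84 gene body cytosines were all at 10% or less, with 0.808% ± 0.288 in control and 1.2% ± 0.802 in arsenic pools (SD, n = 4, exact permutation p = 0.457). The upstream edge of this stretch was sharp. From -636 b to 1917 b 98 cytosines in a row were under 10%, the cytosine at -702 b was at 41.4%, and the 8 cytosines from -1786 b to -1487 b were at 89.8% ± 1.37 in control and 87.3% ± 2.92 in arsenic pools (SD, n = 4, exact permutation p = 0.2).

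Nanos2, an RNA-binding repressor induced by GDNF signalling (chromosome 7, 18987524 to 18988962, plus strand), was read at 6 cytosines of its coding exon, 156 to 322 b from the start site, and at no promoter cytosine. The control pools were at 66.3, 49.3, 70.9 and 52.6% and the arsenic pools at 72.4, 72.7, 58.7 and 68.1%. Controls 1 and 3 lay among the arsenic pools, so the groups overlapped. The mean was 59.8% ± 10.4 in control and 68.0% ± 6.52 in arsenic pools (SD, n = 4), 8.21 points apart (exact permutation p = 0.2, limma adjusted p = 0.923), and 4.73 points apart without control 2. All 6 cytosines had the higher mean in arsenic, but they are neighbours on 1 short stretch and not replicates. Nanos3, which protects primordial germ cells from dying, had no cytosine read in all pools and is not described further.

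Among the genes of differentiation, the receptor tyrosine kinase Kit (chromosome 5, 75574987 to 75656722, plus strand) had 28 promoter cytosines. Their mean levels were 0.210, 10.6, 10.4 and 0.632% in the control pools and 0.657, 0.143, 0.372 and 0.275% in the arsenic pools. Controls 2 and 3 stood apart from the other 6 pools, which lay together. The mean was 5.44% ± 5.80 in control and 0.362% ± 0.218 in arsenic pools (SD, n = 4), -5.08 points apart (exact permutation p = 0.2, limma adjusted p = 0.933). Without controls 2 and 3, a choice made after the values were seen, the difference was -0.0594 points, so these 2 pools carried it.

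The methylated reads of these 2 pools fell on neighbouring cytosines of the Kit promoter. In the 17 cytosines from -71 b to 100 b, control 2 had 2 methylated reads at 15 cytosines and 3 at the others, of 11 to 13 reads. Control 3 had 2 methylated reads at 8 of them and 4 at 9, of 15 to 20 reads. These runs gave levels of 16.7 and 16.8%, while the other pools were at 0 to 1.08%. At the 11 cytosines from -377 b to -166 b all 8 pools were at 0 to 1.08%. In the whole table, 58.2 to 59.3% of the smaller counts of 1 to 6 reads were even in each pool, and the part of this in the Kit values was not tested.

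**Figure D3:**
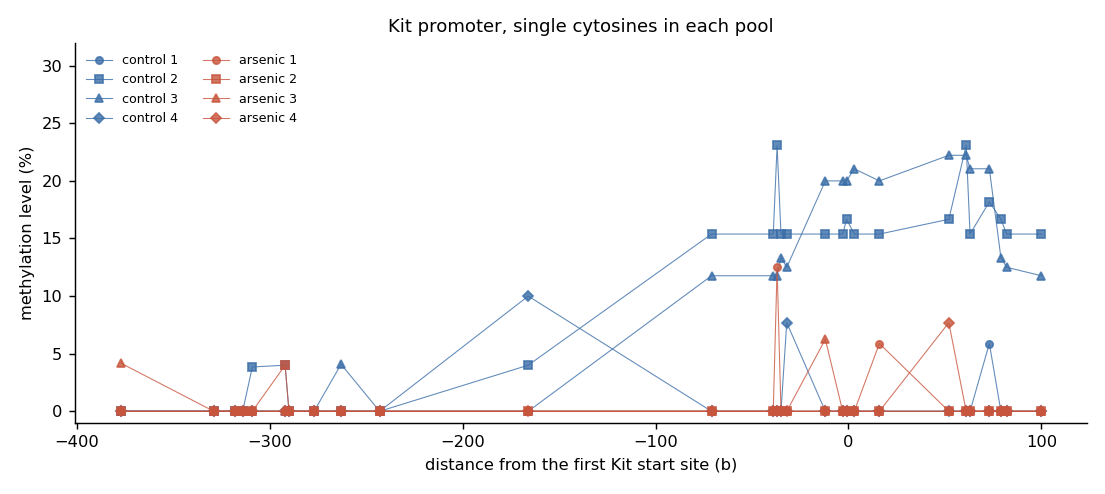
Methylation level (%) of each of the 28 Kit promoter cytosines in each pool against the distance from the first start site in bases, control pools in blue and arsenic pools in red. Controls 2 and 3 rise together over the 17 cytosines from -71 b to 100 b, to means of 16.7 and 16.8%, and the other pools stay near 0.

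Beyond the start site, Kit was methylated like most genes. The last cytosine of the low run lay 693 b downstream and the next one read, at 6064 b, was at 94.5%. The 188 gene body cytosines were at 66.1% ± 0.549 in control and 66.0% ± 0.767 in arsenic pools (SD, n = 4), -0.0855 points apart (exact permutation p = 1). Over the whole transcribed part, which includes promoter cytosines downstream of the start site, introns (180 cytosines) were at 65.5% in both groups. The 12 coding exon cytosines include those from 73 b to 100 b, within the run at the start site described above. They were at 60.9 and 58.3% in controls 2 and 3 and at 51.2 to 52.6% in the other 6 pools, a difference that in part is that of the run.

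Sohlh2 is a helix-loop-helix factor of differentiating spermatogonia (chromosome 3, 55182044 to 55209957, plus strand). Of the 6 genes with a promoter cytosine read, it was the only one whose promoter cytosines were all methylated. The Id4 promoter cytosine at -702 b was partly methylated, at 41.4%. The 2 Sohlh2 promoter cytosines, 56 and 89 b downstream of the start site, were at 77.7, 76.8, 100 and 90.7% in the control pools and 98.0, 97.8, 100 and 100% in the arsenic pools. Control 3 was as high as the arsenic pools and the other control pools were lower (86.3% ± 11.1 against 99% ± 1.21, SD, n = 4, exact permutation p = 0.143). The first intron sequence above lies further downstream, and all of its 7 CpGs were read. In the first kb 36 cytosines averaged 87.3% ± 5.29 in control and 92.8% ± 1.59 in arsenic pools (SD, n = 4).

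The whole Sohlh2 gene body (58 cytosines) was at 85.8, 92.1, 93.1 and 89.3% in control and 95.0, 91.8, 92.0 and 92.9% in arsenic pools. The groups overlapped, with control 1 the lowest and arsenic 1 the highest pool. Means of 90.1% ± 3.28 and 92.9% ± 1.49 (SD, n = 4) differed by 2.85 points (exact permutation p = 0.257, limma adjusted p = 0.923). At the cytosines with at least 20 reads in every pool the groups did not overlap and the difference was 3.96 points (exact permutation p = 0.0286). With 1 pool left out it ran from 1.41 points (without control 1) to 3.87 points (without control 3), with overlap in each case. Of its cytosines 39 were at 90% or more and none at 10% or less. In the list of genes with germ-line promoters, the 11 gene bodies covered averaged 83.1% in these pools and the 11 promoters covered 84.6%.

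Sohlh1, the partner of Sohlh2 (chromosome 2, 25842995 to 25847248, minus strand), was read at 3 intronic cytosines 535 to 565 b from the start site. They averaged 16.9% ± 4.81 in control and 15.5% ± 10.1 in arsenic pools (SD, n = 4), with single pools from 4.76 to 27.6% and overlapping groups (exact permutation p = 0.83). Each of the 3 cytosines had 10 to 22 reads in each pool.

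Dmrt1, a DM-domain factor of both germ and Sertoli cells (chromosome 19, 25505706 to 25604328, plus strand), had no promoter cytosine but 220 in its gene body. The 59 cytosines read in the first kb were at 2.72% ± 0.954 in control and 3.90% ± 1.98 in arsenic pools, and the 27 in the next kb at 2.03% ± 1.20 and 1.62% ± 1.14 (SD, n = 4). Its 27 coding exon cytosines were at 1.59% in control and 1.86% in arsenic pools, against 50.1 and 49.9% for its 193 intronic cytosines. The coding exon cytosines lay 315 to 585 b from the start site, so exon and distance from the start site cannot be told apart here. The whole gene body was at 44.2% ± 0.820 and 44.0% ± 0.482 (SD, n = 4), and the groups overlapped (exact permutation p = 0.714).

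**Figure D4:**
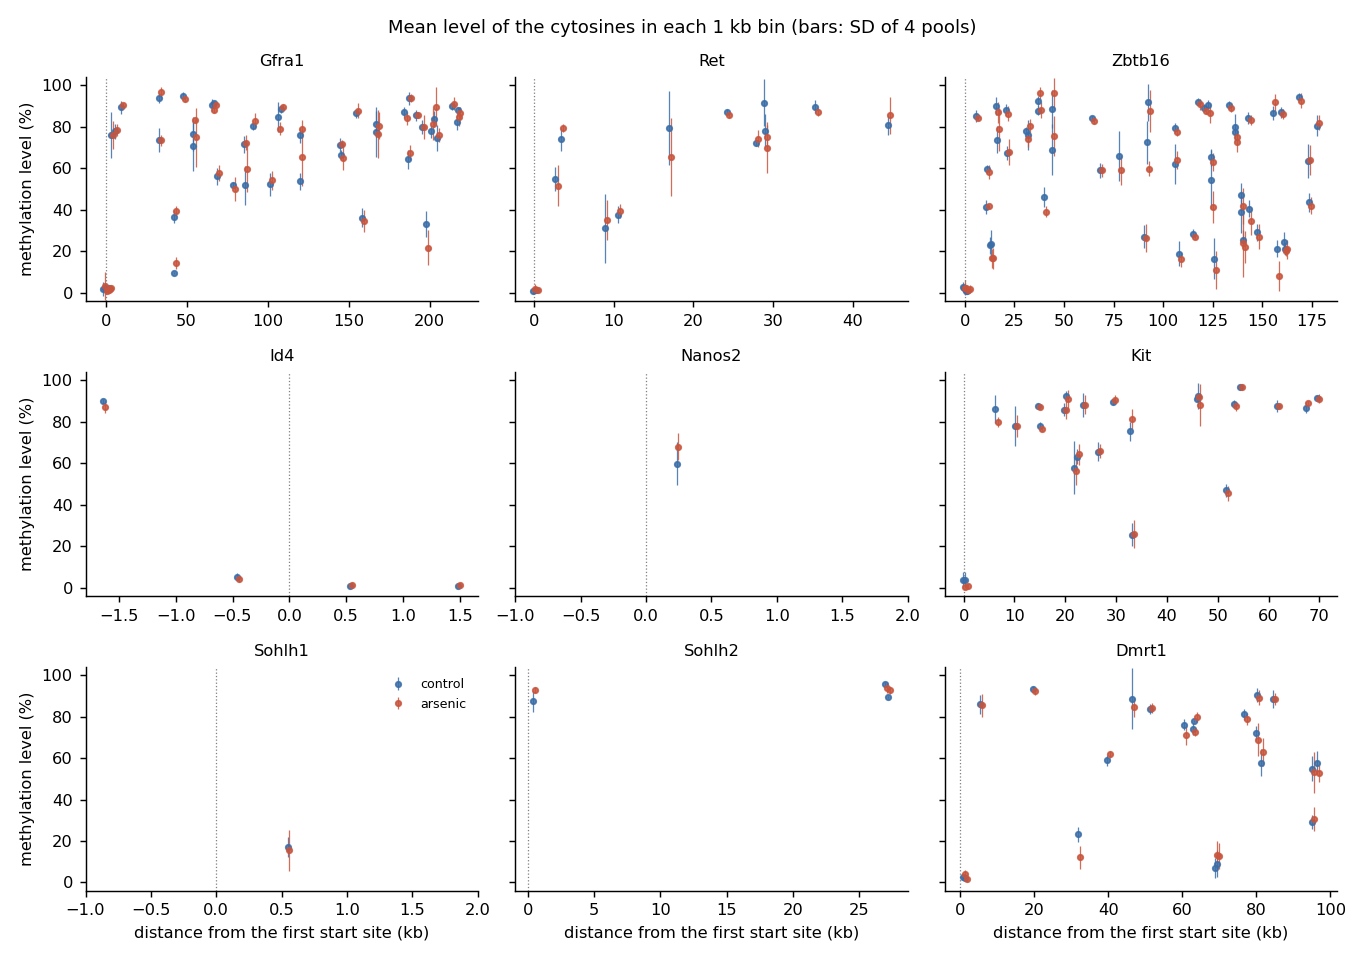
Mean methylation level (%) of the cytosines in each 1 kb bin against the distance of the bin's cytosines from the first start site in kb, for the 9 genes with data, control in blue and arsenic in red (bars, SD of 4 pools). Gfra1, Ret, Zbtb16, Id4, Kit and Dmrt1 are low around the start site and rise within a few kb where further cytosines were read, except Id4, which was read no further than 1917 b, while Sohlh2 is high from its first bin.

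Single cytosines were then tested with the likelihood-ratio test of logistic regression on pooled reads, which the study used. A differentially methylated cytosine (DMC) had a q of at most 0.01 over the whole table and a pooled difference of at least 10 points, and hypoDMCs were lower and hyperDMCs higher in arsenic. The 10 genes held 9 DMCs, 6 hypoDMCs and 3 hyperDMCs. This was 0.622% of their cytosines, beside 0.552% of all cytosines, with 0.414% hypoDMCs beside 0.323% and 0.207% hyperDMCs beside 0.228%, so the counts stood near the background. They lay in Gfra1 (3), Zbtb16 (3), Dmrt1 (2) and Sohlh2 (1), all in introns and none in a promoter. Their sequences are shown on the strand of the cytosine with 20 b on either side (GRCm38), with the tested CpG in capitals.
Gfra1 chr19:58445574-58445614 (plus strand): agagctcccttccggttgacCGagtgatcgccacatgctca
Gfra1 chr19:58310325-58310365 (minus strand): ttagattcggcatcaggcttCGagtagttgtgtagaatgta
Gfra1 chr19:58270876-58270916 (plus strand): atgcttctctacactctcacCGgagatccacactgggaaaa
Zbtb16 chr9:48796141-48796181 (minus strand): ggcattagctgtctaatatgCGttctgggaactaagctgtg
Zbtb16 chr9:48692937-48692977 (plus strand): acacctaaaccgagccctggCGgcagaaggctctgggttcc
Zbtb16 chr9:48680977-48681017 (plus strand): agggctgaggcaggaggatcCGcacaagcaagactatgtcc
Sohlh2 chr3:55182290-55182330 (plus strand): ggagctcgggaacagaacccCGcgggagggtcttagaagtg
Dmrt1 chr19:25568412-25568452 (plus strand): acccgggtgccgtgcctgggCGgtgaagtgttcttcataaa
Dmrt1 chr19:25585694-25585734 (minus strand): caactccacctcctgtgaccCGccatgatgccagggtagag

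The largest difference was at the Zbtb16 cytosine chr9:48796161, 40064 b into the gene. It was at 65, 90.9, 75.8 and 52.0% in the control pools and 44.8, 38.2, 33.3 and 37.8% in the arsenic pools. This was the only one of the 9 DMCs at which the groups did not overlap. The pooled difference was -28.9 points (q = 0.000281), and an exact permutation test gave p = 0.0286. The cytosine on the other strand of the same CpG was at 59.3% ± 9.5 in control and 56.3% ± 5.05 in arsenic pools (SD, n = 4), a difference of -3.01 points.

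The other Zbtb16 DMCs lay deep in the gene. The hypoDMC at 143268 b was at 11.1, 36.7, 35.7 and 33.3% in control and 9.33, 13.0, 18.2 and 9.64% in arsenic pools, and control 1 lay among the arsenic pools. At 155228 b the hyperDMC was at 100% in all arsenic pools and at 100, 85.7, 66.7 and 97.1% in control pools, so control 1 was level with them. Its pooled difference of 13.9 points was 3.37 points without control 3, where it was no longer called.

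The Sohlh2 hyperDMC, chr3:55182310 in the first intron 266 b from the start site, was at 54.8, 68.2, 100 and 89.3% in the control pools and at 100% in each arsenic pool. Control 3 thus matched the arsenic pools. Its pooled difference was 22.2 points (q = 2.77e-05), and 13.0 points without control 1, where it was still called. Of 7 cytosines within 100 b, 6 moved in the same direction, by 6.38 points on average over the 7.

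The remaining DMCs differed by 10.1 to 12.1 points in pooled reads, with overlapping groups at each. In Gfra1 the hypoDMC at 145053 b had 114 to 237 reads and was at 72.1, 78.8, 75.5 and 71.7% in control and 74.3, 57.8, 45.6 and 67.9% in arsenic pools, where arsenic 1 lay among the controls. The Gfra1 hypoDMC at 184502 b was at 98.4% ± 2.09 against 86.5% ± 8.45, and the hyperDMC at 9804 b at 89.7% ± 7.01 against 98.7% ± 2.63 (SD, n = 4). In Dmrt1 the hypoDMC at 80008 b was at 100% in all control pools and 89.6% ± 7.27 in arsenic pools, and that at 62726 b was at 91.4% ± 3.53 against 81.8% ± 5.22 (SD, n = 4).

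**Figure D5:**
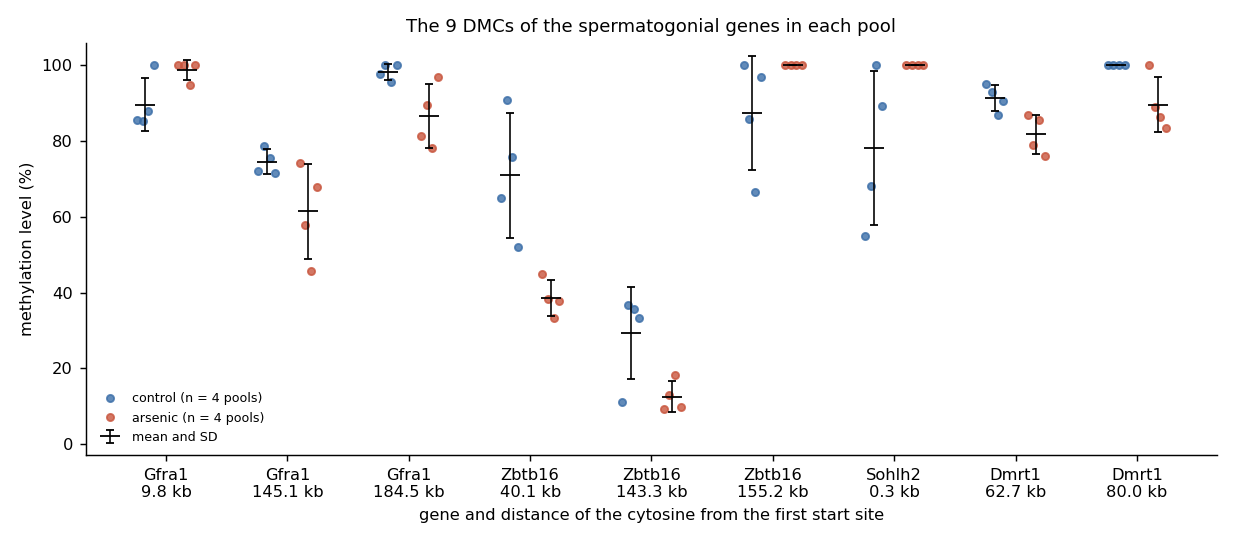
Methylation level (%) of the 9 DMCs in each pool, labelled by gene and distance from the first start site, control in blue, arsenic in red, with the mean and SD of 4 pools in black. Only at the Zbtb16 cytosine 40.1 kb into the gene do the 4 arsenic pools all lie below the 4 control pools.

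The test on pooled reads takes no account of the spread between pools. This spread, as the Pearson chi-square per degree of freedom (1 if only reads vary), had a median of 1.41 at cytosines of the 10 genes, 1.49 at all cytosines and 2.29 at the 9 DMCs. With this spread in the error none of the 9 was called, with a q of 0.893 by the overdispersion-scaled F test and 0.972 by limma for each. Over all cytosines limma likewise called 0 at a q of at most 0.01. Of the 1448 cytosines 81 (5.59%) had a limma p under 0.05, beside 5.11% of all cytosines, and 30 (2.07%) had groups without overlap, beside 2.10%. The cytosine on the other strand was read for 6 of the 9 DMCs. It moved in the same direction at 3 of them and was a DMC at none. With 1 pool left out in turn, the 9 DMCs were no longer called in 27 of 72 recomputations. Leaving out control 4 raised the count to 14 DMCs, and leaving out arsenic 3 raised it to 16. The share of all cytosines called in these runs was not counted, so whether the whole table moved alike is not known.

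Windows of 1 kb with at least 3 cytosines were tested with the overdispersion-scaled F test to look for clustered change. None of 128 windows in the 10 genes was called, as for 0% of all 198197 windows. An unadjusted p under 0.05 was found in 4 windows (3.13%), beside 4.51% of all windows, and the likelihood-ratio test without overdispersion also called 0 of the 128, beside 0.469% of all windows. The lowest p, 0.00176 (q = 0.977), was at the Zbtb16 window chr9:48823000-48823999, intronic and 12759 to 13080 b from the start site, part of which is shown above. Its 15 cytosines averaged 20.4, 26.8, 23.4 and 21.9% in control and 16.9, 17.5, 17.1 and 14.9% in arsenic pools. The groups did not overlap, with 23.1% ± 2.73 against 16.6% ± 1.18 (SD, n = 4), a difference of -6.51 points.

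The other genes of these pathways showed the same low promoters. Of 22 further genes of self-renewal and GDNF signalling, 16 promoters were measured, all under 10% with a median of 1.42%, and none was called by limma in either direction. Their median difference was -0.0242 points, beside -0.0562 points over all promoters. Of their 22 gene bodies none was called, 16 were lower and 6 higher, with a median of -0.320 points beside -0.276 points over all gene bodies. The 1 region of this list without overlap was the body of Pax7, a transcription factor of rare stem spermatogonia, at 16.6% ± 0.197 in control and 15.8% ± 0.432 in arsenic pools (SD, n = 4, exact permutation p = 0.0286, limma adjusted p = 0.956). This was 1 of 22 gene bodies and 0 of 16 promoters, near the share over all genes, 3.93% of gene bodies and 2.97% of promoters.

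Of 16 further genes of differentiation and retinoic acid signalling, 12 promoters were measured and 9 were under 10%. The exceptions were Stra8, which retinoic acid induces before meiosis, Dmrtb1 (84.9%), a regulator of the entry into meiosis, and the cadherin gene Cdh1 (19.1%). Stra8 ranged from 68.4 to 92.6% over the pools. No promoter and none of 15 gene bodies was called by limma. Among the promoters 2 were lower and 10 higher, beside 52.5% of all promoters lower. Their median difference was 0.644 points, beside -0.0562 points over all promoters, and most of them lay near the floor. Among the gene bodies 8 were lower and 7 higher, with a median of -0.111 points beside -0.276 points over all gene bodies. Kitl, which encodes the ligand of Kit, had promoter levels of 0.240% ± 0.278 in control and 1.01% ± 0.273 in arsenic pools, without overlap (SD, n = 4, exact permutation p = 0.0286, limma adjusted p = 0.896). This promoter held 9 cytosines, and both means lay near the floor. The gene body of Ccnd2, which encodes cyclin D2, was at 46.5% ± 1.33 against 44.2% ± 0.128, also without overlap (SD, n = 4, exact permutation p = 0.0286, limma adjusted p = 0.876). These were 1 of 12 promoters and 1 of 15 gene bodies, beside 2.97% of all promoters and 3.93% of all gene bodies without overlap.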

How the data were processed

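The deposited table gave, per CpG cytosine and pool, read counts as coverage, methylated and unmethylated reads. The authors made these counts with Trim Galore 0.6.5, Bismark 0.22.3 (mm10) and methylKit 1.22.0 from reads of C3H mice, kept cytosines with at least 10 reads in every sample and left strands apart. The effect of sequence differences from the reference strain was not tested. The study reports incomplete bisulfite conversion. Its part in levels near the floor, such as those of the Gfra1 and Kitl promoters, was not tested. The table held 2131605 cytosines, and the 2130064 on chromosomes 1 to 19, X and Y were used.

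A level was 100 × methylated reads over coverage, and a region's level was the unweighted mean over its cytosines (SD over pools). Regions came from curated RefSeq transcripts (GRCm38.p6). limma 3.58.1 (R 4.3.3) was fitted to log2 ratios of summed counts with a pseudocount of 1, for promoters and gene bodies with at least 3 cytosines, adjusted over all genes. The likelihood-ratio and F tests and the exact permutation tests (70 assignments, two-sided, unadjusted) were run in Python 3.11.15 with scipy 1.17.1. The code was tested on simulated data. eDMR, which the study used for regions, was not run, and windows of 1 kb took its place.

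Nothing in the labels says that pools shared a litter or day. The p-values of limma, the F test and the permutation tests measure the spread between pools, and those of the likelihood-ratio test do not. Counts of 2 pools differed by a chi-square of 1.98 to 2.07 per cytosine within a group and 1.97 to 2.08 between groups, so no pair of pools stood apart from the others. The 10 genes and all lists were chosen with earlier results of these data known. Named were all 10 genes, all their DMCs if 10 or fewer, and, where no window was called, the window with the lowest q. Many windows shared that q, and the one of them with the lowest p was taken. From other lists, called genes were named, or else at most 2 per list with the largest difference without overlap.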

Additional observations from a re-analysis of the deposited data

How the results depend on the processing

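No promoter, gene body or window of the 10 genes was called under any alternative run. limma called 0 of the 12 to 15 regions tested in each (lowest adjusted p 0.742 to 0.931), and 0 with the replicate number as a block (lowest adjusted p 0.852). Same-numbered pools deviated together by correlations of -0.00882 to 0.0195, so the numbers were taken as names only. The 9 DMCs became 0 by the overdispersion-scaled F test, 0 by limma on single cytosines, 0 by limma with the block, 2 at a difference of at least 20 points, 7 at a coverage of 20, 6 with strands summed, and 7 to 16 with 1 pool left out (14 without control 4, 16 without arsenic 3). The share of all cytosines called in these settings was not counted, apart from limma without the block, which called 0. Regions without overlap, 1 as reported, numbered 2 at a coverage of at least 20, 0 with strands summed, with coverage-weighted levels and with the first start site only, and 1 to 2 with 1 pool left out (2 without control 3 and without arsenic 1). The 2 at a coverage of 20 were the Zbtb16 and Sohlh2 bodies. Regions with an exact permutation p of at most 0.05, 1 as reported, numbered 2, 0, 0 and 0 in the same settings and 0 to 2 with 1 pool left out (0 without any 1 arsenic pool, 2 without control 3, where the Gfra1 promoter joined). For neither count of regions was the share over all genes computed in these settings, so whether the background moved alike is not known.

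The difference changed sign in 24 of 180 recomputations, all in regions whose reported difference was at most 1.43 points in size. The Zbtb16 promoter was at 0.484 points at a coverage of at least 20 and 0.231 with weighted levels, the Gfra1 body at -1.34 and the Ret body at -0.453 with weighted levels, the Id4 body at -0.254 at a coverage of 20, and the Dmrt1 body at 0.177 with strands summed. With 1 pool left out, the Ret promoter ran from -0.440 to 0.854, the Zbtb16 promoter from -0.203 to 0.299, the Dmrt1 body from -0.550 to 0.0725, the Kit body from -0.448 to 0.107, the Ret body from -0.350 to 0.700 and the Sohlh1 body from -5.47 to 2.14 points. The causes were not tested. Reads per cytosine were fewest in the Sohlh1 body (median 16) and in the Ret and Kit promoters (median 17 each), and the Sohlh1 and Nanos2 bodies and the Sohlh2 promoter rest on 2 to 6 cytosines.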
